A study of Mus musculus with 16 samples.

Results

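The 10 genes described here encode the subunits of AMP-activated protein kinase (AMPK) and its upstream kinases: the catalytic alpha subunits Prkaa1 and Prkaa2, the scaffolding beta subunits Prkab1 and Prkab2, the nucleotide-binding gamma subunits Prkag1, Prkag2 and Prkag3, and the kinases Stk11 (LKB1), Camkk2 and Map3k7 (TAK1). They were chosen by name with earlier results of these data known, and each symbol matched 1 Ensembl gene in the deposited count tables, 10 of 49585 genes in all. Each of the 10 genes passed the filter on low counts in both tables; Prkaa2 passed it on its more abundant libraries, since it held 4 and 9 counts in the AMPK-knockout libraries before differentiation.

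AMPK is a heterotrimer of 1 alpha, 1 beta and 1 gamma subunit that senses a fall in cellular energy through AMP and ADP bound to the gamma subunit. It becomes active when an upstream kinase phosphorylates the activation loop of the alpha subunit: LKB1 does so in response to energy stress, CaMKK2 in response to calcium, and TAK1 has been described as a further activator. Skeletal muscle is known for complexes that contain alpha-2, beta-2 and the muscle-restricted gamma-3 subunit, whereas alpha-1, beta-1 and gamma-1 are found in most tissues.

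All libraries came from C2C12, an immortalised line of mouse myoblasts; confluent cultures fuse into myotubes once the serum is lowered. In the first table, wild-type (WT) cells and cells with Prkaa1 and Prkaa2 disrupted by CRISPR/Cas9 (AMPK-KO) were sequenced as myoblasts (d0) and after 8 days of differentiation (d8), with 2 libraries in each of the 4 groups. In the second table, every library carried a FLAG-BirA tag added by knock-in to the start of TET2 at its own locus. TET2 is an enzyme that oxidises methylated cytosine. TET2-WT kept the wild-type protein, and TET2-S97E carried a glutamate in place of serine 97 that mimics phosphorylation. Each genotype had 2 clones of 2 libraries. Their titles give no day, the paper describes these cells as undifferentiated, and they are called d0 here. All of them carried the AMPK-/- background. The second table therefore holds no cells with intact alpha subunits. Knockout cells were grown from picked clones. Independent AMPK-KO lines were used for sequencing, RNA-seq tracks included, so the AMPK-KO libraries of a day may come from different lines; no source used here says which library is which line, and the part of the line was not tested. Nothing in the labels says that replicates were separate cultures, so p-values measure the spread between libraries, which may be technical.

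Counts assigned to genes ranged from 17883417 to 24663079 per library in the first table and from 19801909 to 37790358 in the second. Levels are given as CPM, the counts scaled to a common library total, when 1 gene is followed across libraries, and as TPM, which also divides by exon length, when genes are set beside each other. The 2 tables were normalised separately, and no test was run across them. Identity was checked with marker lists: the macrophage marker Adgre1 was listed at 0 in all 16 libraries and Ptprc at 0 or 1 count, the other 2 macrophage markers, Cd68 and Csf1r, held 18 to 134 and 3 to 38 counts, and Des, a muscle intermediate filament gene, held at least 17070 counts in every library.

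Several libraries stood apart in their summed CPM of 8 myotube genes (Myog, Ckm, Acta1, Myh1, Myh3, Tnnt3, Actn2 and Mymk). The sum was 157 and 103 in WT at d0, 18.2 and 12.1 in AMPK-KO at d0, 5551 and 8460 in WT at d8, and 1647 and 9911 in AMPK-KO at d8. The pair of AMPK-KO d8 libraries thus differed widely, replicate 1 falling below both WT d8 libraries and replicate 2 above both, and Acta1, the most abundant of these genes, was at 1099 and 6423 CPM in them. Among the undifferentiated TET2-WT libraries the sum was 10.8 and 13.6 in clone 1 and 29.7 and 219 in clone 2, and among TET2-S97E libraries it was 4796 and 1511 in clone 1 and 1648 and 329 in clone 2. In bulk RNA, fewer cells of a type and less RNA per cell cannot be told apart. The satellite-cell gene Pax7, one of the myoblast markers, held 138 to 177 counts in WT and 0 to 2 in AMPK-KO libraries, 1 to 6 in TET2-WT and 42 to 323 in TET2-S97E.

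The guide used against Prkaa2 is shown because both alpha genes are edited in every AMPK-KO and TET2 library and the guide places the cut for 1 of them. Prkaa2 (ENSMUSG00000028518.8) lies on the minus strand at chr4:105029874-105109890 in GRCm38, and the guide matched coding exon 4 of 9 exons in Prkaa2-201, at chr4:105051266-105051285, on the strand of the gene. Below, the first line gives the guide with its adjacent PAM in capitals. The second gives its genomic surroundings at chr4:105051243-105051305 with guide and PAM in capitals. The third gives the closest stretch in Prkaa1 transcripts, on the strand of the gene, with its mismatches to the guide in capitals. The opposite strand and the introns of Prkaa1 were not searched.
Prkaa2 guide and PAM: acaggcatatggttgtccatAGG
Prkaa2 exon 4: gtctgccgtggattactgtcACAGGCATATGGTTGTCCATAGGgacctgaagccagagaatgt
Prkaa1 exon 4: acaggcatatggtGgtccaCaga
The Prkaa1 stretch, at chr15:5168629-5168651 in exon 4 of Prkaa1-201, had 2 mismatches to the guide and was followed by aga rather than a PAM of the NGG form. The first guide base lay at position 392 of the 1656 bases of Prkaa2 coding sequence, and the matching Prkaa1 stretch began at position 425 of 1677. Prkaa1 (ENSMUSG00000050697.8, chr15:5143861-5181899, plus strand) was targeted with a commercial plasmid whose guide is not used here. The deposited counts cover each whole gene, so a transcript with a small edit would still be counted.

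Before differentiation, WT myoblasts were dominated by the broadly expressed subunits. Prkaa1 was the highest of the 10 genes at 121 ± 4.57 TPM (SD, n = 2), followed by Stk11 at 94.4 ± 3.16 and Map3k7 at 76.9 ± 8.61 TPM. Prkag1 at 55.2 ± 4.83 and Prkab1 at 42.3 ± 1.18 TPM led the gamma and beta subunits. Prkab2 at 20.1 ± 9.54 and Camkk2 at 15.6 ± 4.99 TPM had overlapping library values. Prkag2 was at 8.09 ± 1.83 TPM and Prkag3 at 1.32 ± 0.429 TPM. Prkaa2 was the lowest of the 10, at 0.776 TPM as the mean of 2 libraries, and all other neighbours in this order did not overlap. The order and these overlaps hold for merged exon length only. Merged exons and the longest transcript differ most for Camkk2 (10921 and 4861 bases), and they also differ for Stk11 (4580 and 3663 bases). Part of the order moved with the longest transcript as length, as given at the close.

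At d8 in WT, Prkag3 stood higher in this order, at rank 5 rather than 9, while Prkab2 kept rank 6. Stk11 at 104 ± 2.99 TPM stood first, followed by Prkaa1 at 99.4 ± 1.18 TPM and Map3k7 at 87.3 ± 4.55 TPM next. Prkag1 at 56.1 ± 6.51, Prkag3 at 47.2 ± 18.7, Prkab2 at 42.7 ± 2.41 and Prkab1 at 40.9 ± 9.34 TPM followed, with each pair of neighbours overlapping. Prkaa2, at 3.78 ± 1.26 TPM, was still last, and its library values overlapped those of Prkag2, at 4.87 ± 0.533 TPM. In the second table the order at d0 began with Stk11 in both genotypes (126 ± 5.98 TPM in TET2-WT and 103 ± 7.69 TPM in TET2-S97E, n = 4) and ended with Prkaa2 in both. Prkaa1, Map3k7, Prkag1 and Prkab1 followed Stk11 there with each pair of neighbours overlapping.

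Across the 8 libraries of the first table, the highest CPM was 71.9 times the lowest for Prkag3 and 48.4 times for Prkaa2. This ratio was 3.88 for Camkk2, 3.78 for Prkab2, 2.22 for Prkag2 and 2.03 for Prkaa1, and 1.31 for Prkag1, 1.32 for Map3k7 and 1.45 for Stk11. In the second table Prkag3 was again the most variable member, at 28.0 times.

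**Figure D1:**
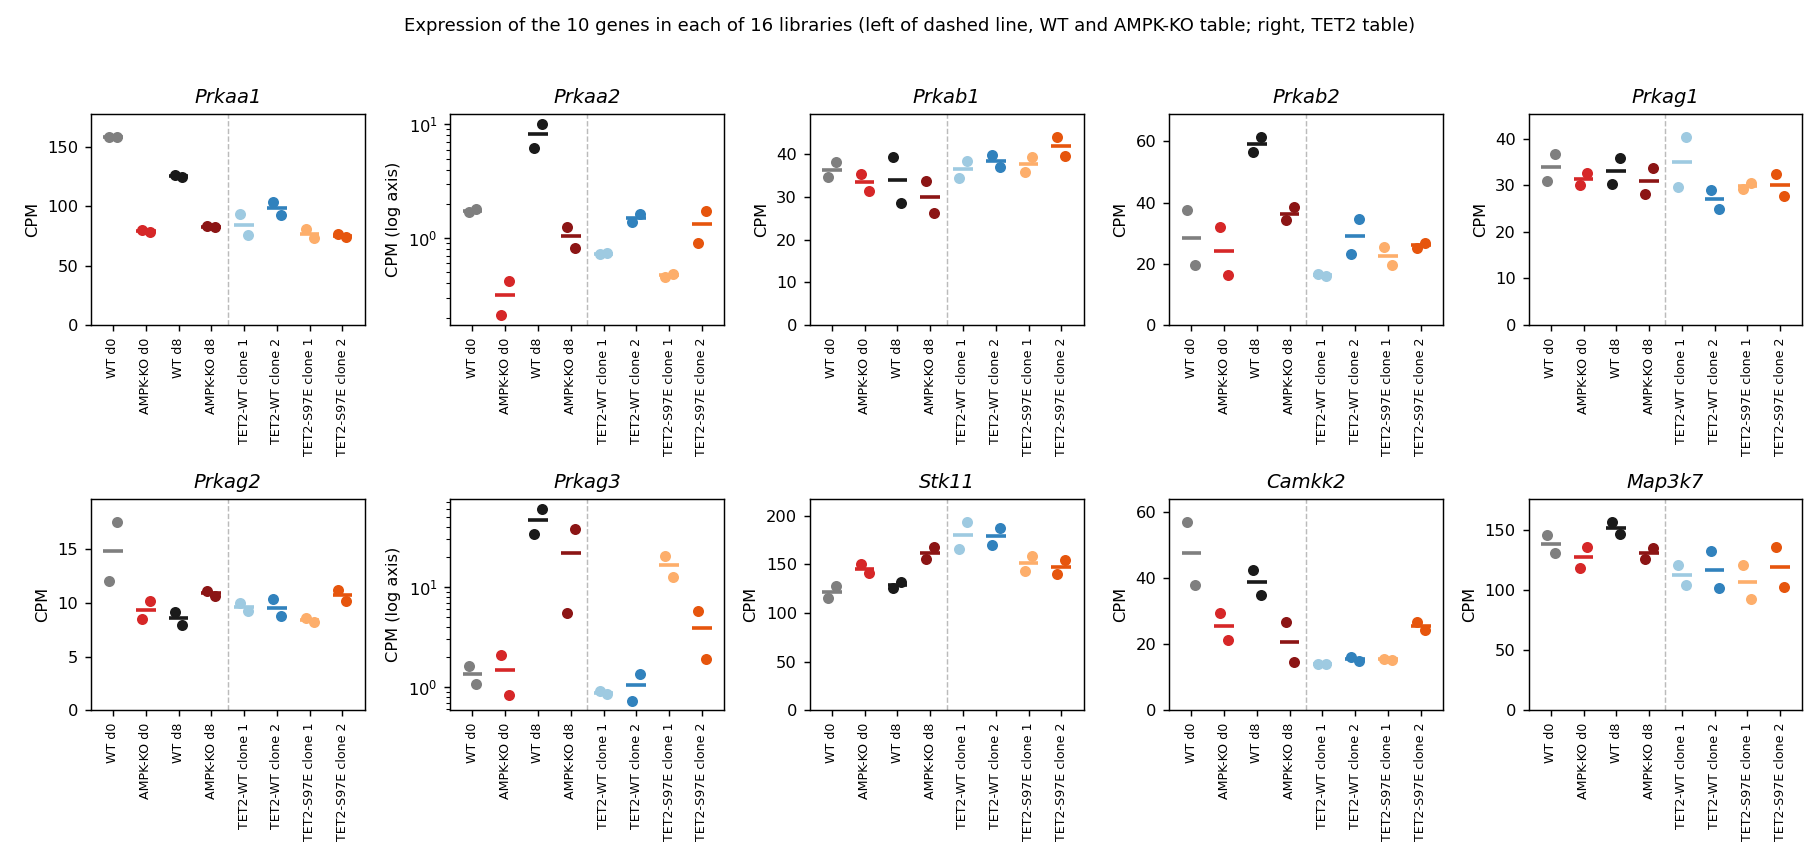
CPM of each of the 10 genes (vertical axis; logarithmic for Prkaa2 and Prkag3, linear from 0 for the rest) in all 16 libraries, with points for libraries, short lines for group means and a dashed line between the separately normalised tables. Prkaa1 and Prkaa2 lay lower in AMPK-KO than in WT on both days, and Prkag3 lay higher at d8 than at d0 and higher in TET2-S97E than in TET2-WT libraries, by little in TET2-S97E clone 2 replicate 2 (1.93 CPM).

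The comparison of AMPK-KO with WT asks how loss of the catalytic subunits changed the transcriptome of myoblasts and myotubes, and the 2 edited genes check the labels. Both alpha subunit genes were lower in every AMPK-KO library than in every WT library of the same day. Prkaa1 was at 158 and 158 CPM in WT and at 79.6 and 78.0 CPM in AMPK-KO at d0. At d8 it was at 126 and 125 CPM in WT and at 83.3 and 82.4 CPM in AMPK-KO. The groups did not overlap on either day, and the 4 AMPK-KO libraries lay between 78.0 and 83.3 CPM.

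By edgeR's quasi-likelihood test with Benjamini-Hochberg adjustment over 14329 genes, Prkaa1 fell by 1.01 ± 0.126 (SE) on the log2 scale at d0 (adjusted p = 0.0116), to 0.497 of the WT level; without AMPK-KO d0 replicate 1 or 2 the adjusted p was 0.0959 or 0.0759. At d8 it fell by 0.60 ± 0.126 (adjusted p = 0.0419), to 0.661 of the WT level; this call was lost without any 1 of the 4 d8 libraries (edgeR adjusted p of 0.128 to 0.221) and without either AMPK-KO d0 library (0.0737 and 0.0780). The change in the knockout effect between the days was 0.41 ± 0.177 on the log2 scale (unadjusted p = 0.0530 by edgeR), so a smaller effect at d8 was not shown. Over both days Prkaa1 was lower by -0.80 ± 0.0891 on the log2 scale (edgeR adjusted p = 0.00257).

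Prkaa2, the alpha subunit known for skeletal muscle, was scarce in myoblasts and its counts were few. In WT it was at 1.69 and 1.79 CPM at d0 and at 6.22 and 10.1 CPM at d8. In AMPK-KO it was at 0.209 and 0.421 CPM at d0, from 4 and 9 counts, and at 1.26 and 0.825 CPM at d8, from 31 and 17 counts. All AMPK-KO values, both days included, lay below all WT values.

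At d0 the log2 difference of Prkaa2 between AMPK-KO and WT was -2.43 ± 0.514 (edgeR adjusted p = 0.0527), which did not pass the threshold of 0.05; DESeq2 called it (adjusted p = 0.00667). At d8 Prkaa2 fell by 2.96 ± 0.471 on the log2 scale (edgeR adjusted p = 0.0190), to 0.129 of the WT level, and without any 1 of the 4 d8 libraries the adjusted p was 0.0677 to 0.123. Over both days the log2 difference was -2.69 ± 0.347 (edgeR adjusted p = 0.00423). The knockout effect did not differ detectably between days (difference of -0.53 ± 0.706 on the log2 scale).

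Of the 10 genes, edgeR called 1 at d0 (Prkaa1), where 3.52% of all genes tested were called, and 2 at d8 (Prkaa1 and Prkaa2), where 5.35% were called. For the mean of both days it called the same pair, beside 14.4% of all genes. The median log2 difference over the 10 genes was -0.18 at d0 and -0.41 at d8, beside -0.001 and 0.04 over all genes tested.

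**Figure D2:**
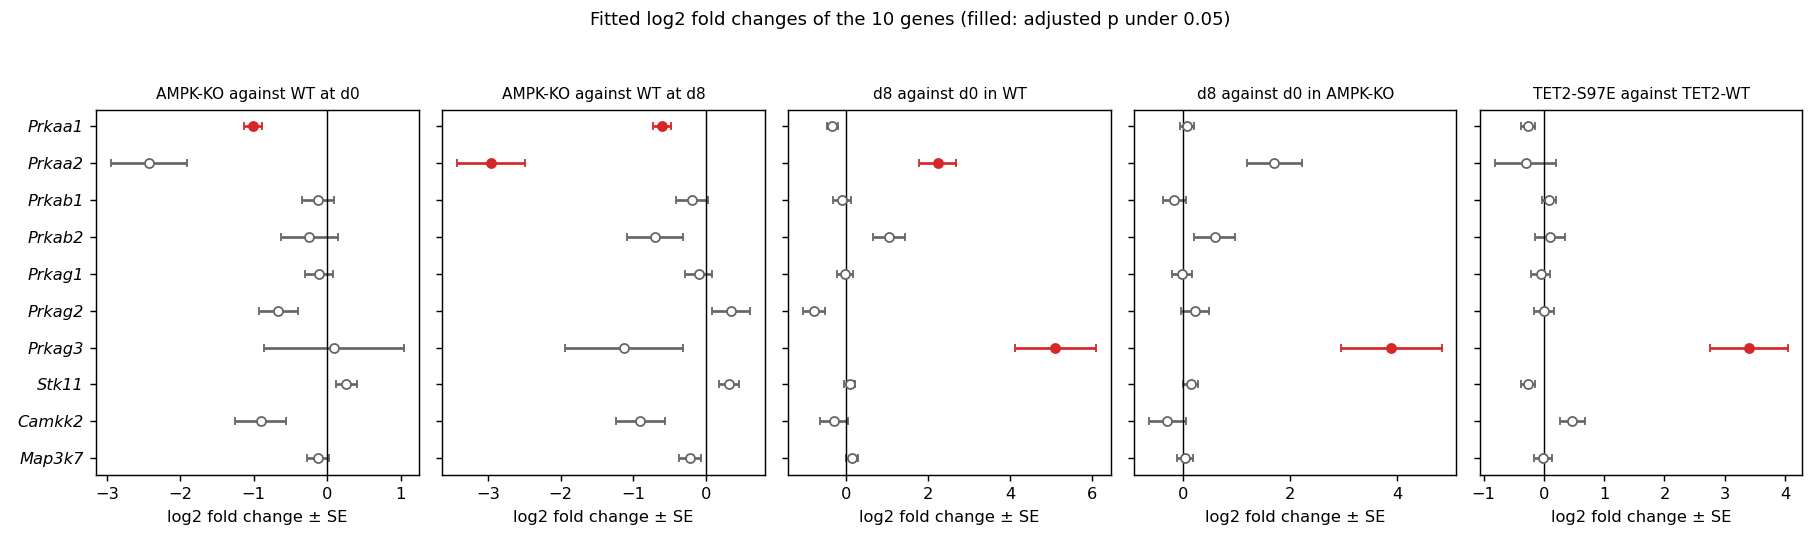
Log2 fold change (horizontal axis) with its SE for the 10 genes in 5 comparisons, one panel each; filled red points passed an adjusted p of 0.05 in edgeR's quasi-likelihood test. Only Prkaa1, Prkaa2 and Prkag3 had filled points.

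Neither beta subunit passed the test between genotypes. Prkab1 (ENSMUSG00000029513.14, chr5:116013586-116024508, minus strand) stayed between 26.2 and 39.4 CPM in all 8 libraries of the first table, and its AMPK-KO and WT values overlapped on both days. Prkab2 (ENSMUSG00000038205.12, chr3:97658193-97673812, plus strand), the beta isoform known for muscle, was uneven at d0, with 37.5 and 19.7 CPM in WT and 32.1 and 16.3 CPM in AMPK-KO. At d8 it was at 56.4 and 61.5 CPM in WT and at 34.2 and 38.5 CPM in AMPK-KO, so these groups did not overlap. The log2 difference at d8 was -0.70 ± 0.383 (edgeR adjusted p = 0.325), which did not pass the test.

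Of the gamma subunits, Prkag1 (ENSMUSG00000067713.6, chr15:98812797-98831521, minus strand) varied least, from 28.0 to 36.8 CPM in the first table, with overlapping groups throughout. Prkag2 (ENSMUSG00000028944.14, chr5:24862744-25100642, minus strand) was at 12.1 and 17.6 CPM in WT and at 8.53 and 10.1 CPM in AMPK-KO at d0. At d8 the order was the other way round, with 9.19 and 7.92 CPM in WT and 11.1 and 10.6 CPM in AMPK-KO. The groups were apart on both days, in opposite directions, and the test of that difference is given among the closing observations. At d0 the log2 difference of Prkag2 was -0.66 ± 0.263 (edgeR adjusted p = 0.213). It was -0.92 without WT d0 replicate 1 and -0.37 without WT d0 replicate 2.

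Prkag3 (ENSMUSG00000006542.13, chr1:74738922-74749221, minus strand), the gamma isoform of fast skeletal muscle, was low in myoblasts, at 1.64 and 1.08 CPM in WT and 2.09 and 0.841 CPM in AMPK-KO. At d8 it was at 33.8 and 60.5 CPM in WT and at 5.46 and 37.9 CPM in AMPK-KO. AMPK-KO replicate 1, the d8 library with the lowest myotube sum, held the lowest d8 value, and the groups overlapped. The log2 difference between AMPK-KO and WT at d8 was -1.12 ± 0.812 (edgeR adjusted p = 0.457), and it was -0.31 without AMPK-KO d8 replicate 1 and -3.11 without replicate 2 (edgeR adjusted p = 0.0540 for the latter). With no filter on low counts edgeR called it (-1.14, adjusted p = 0.00394).

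The promoter of Prkag3 is shown because its level moved most among the 10 genes and because the muscle regulatory factors MyoD and myogenin are known to bind E-boxes. All 10 symbols matched RefSeq start sites in the promoter table (GRCm38.p6), with 12 windows among them. A 30-base stretch at chr1:74748978-74749007, minus strand, holds the letters CAGCTG (capitals) ending 34 bases before the RefSeq start of Prkag3. The stretch is upstream of that start but lies inside the Prkag3 interval that GENCODE M21 gives, which begins further upstream.
Prkag3 promoter: gcagtgcgggaaCAGCTGcgggttaagcgc
CAGCTG, which reads the same on both strands, was in the 250 bases before the start in 1 of the 12 windows, that of Prkag3, and in 13.0% of 32851 such windows genome-wide. The looser letters CANNTG, which include CAGCTG, were in 6 of the 12 windows and in 66.2% of all. A match is a description of the letters and shows no binding.

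In edgeR's fit without a replicate block, Prkag3 rose from d0 to d8 in both genotypes and Prkaa2 in WT. Prkag3 rose 34.4-fold in WT (5.10 ± 0.987 on the log2 scale, edgeR adjusted p = 0.0231) and 14.8-fold in AMPK-KO (3.89 ± 0.943, edgeR adjusted p = 0.0468), and the d8 libraries lay above all d0 libraries in both genotypes. The WT call was lost without any 1 of the 4 WT libraries (log2 difference of 4.62 to 5.43, edgeR adjusted p of 0.0560 to 0.138). In AMPK-KO the call was lost without any 1 of the other 7 libraries (edgeR adjusted p of 0.0568 to 0.189) but not without d8 replicate 1: the log2 difference was 4.70 on the log2 scale without d8 replicate 1 and 1.90 without d8 replicate 2 (edgeR adjusted p = 0.140 for the latter). With a replicate block it was 3.57 and not called (edgeR adjusted p = 0.0630). Prkaa2 rose 4.70-fold in WT (2.23 ± 0.455 on the log2 scale, edgeR adjusted p = 0.0264), a call also lost without any 1 of the 4 WT libraries (edgeR adjusted p of 0.0598 to 0.180). In AMPK-KO its log2 difference was 1.70 ± 0.516 (edgeR adjusted p = 0.0833), with both d8 libraries above both d0 libraries.

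Other members did not pass this test with differentiation. In WT, Prkab2 had a log2 difference of 1.05 ± 0.386 (edgeR adjusted p = 0.119), called by DESeq2 (adjusted p = 0.0476) and by edgeR with no filter on low counts (adjusted p = 0.000872). It was 0.66 without WT d0 replicate 2 and 1.57 without WT d0 replicate 1, called in neither. Prkag2 had a log2 difference of -0.79 ± 0.264 (edgeR adjusted p = 0.0932), which was -1.05 without WT d0 replicate 1 and -0.49 without WT d0 replicate 2. EdgeR called Prkag2 lower in 1 of the fits that left out a library. Prkaa1 had a log2 difference of -0.34 ± 0.125 (edgeR adjusted p = 0.120). For Prkab2, Prkag2 and Prkaa1 the WT libraries of d8 and d0 did not overlap, as also for Prkaa2, Prkag3 and Map3k7. The share of all genes with such a separation is not given here, so it is no result about these members. The remaining 5 members lay between -0.30 and 0.13 in WT, and the other 8 members lay between -0.29 and 0.59 in AMPK-KO. Prkaa2 and Prkag3 were thus 2 of 10 called in WT, beside 12.4% of all genes, and Prkag3 was 1 of 10 in AMPK-KO, beside 9.76%.

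For the difference of these changes between genotypes, edgeR called none of 14329 genes, while 729 had an unadjusted p below 0.05, DESeq2 called 60 and the fit with no filter on low counts called 449. The difference for Prkag3 was -1.21 ± 1.25 on the log2 scale. It was -3.20 without AMPK-KO d8 replicate 2 and -0.40 without replicate 1, and it was called in neither, so a weaker rise of Prkag3 in AMPK-KO was not shown.

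The myotube markers rose with the same comparisons as Prkag3: edgeR called 8 of 8 higher at d8 than at d0 in WT and 7 of 8 in AMPK-KO. Their part in the changes of Prkag3, Prkaa2 and Prkab2 was not tested. The summed CPM of 4 fibroblast markers (Pdgfra, Dcn, Lum and Thy1) was 62.8 and 25.7 at d0 and 914 and 1420 at d8 in WT, and 26.7 and 34.8 then 277 and 434 in AMPK-KO. Of the 3 tested, edgeR called Dcn and Lum higher at d8 in WT and Dcn alone in AMPK-KO. Dcn, the most abundant at d8, was at 878 and 1367 CPM in WT and 240.3 and 400 CPM in AMPK-KO, and Thy1 was at 0 to 4 counts in every library.

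**Figure D3:**
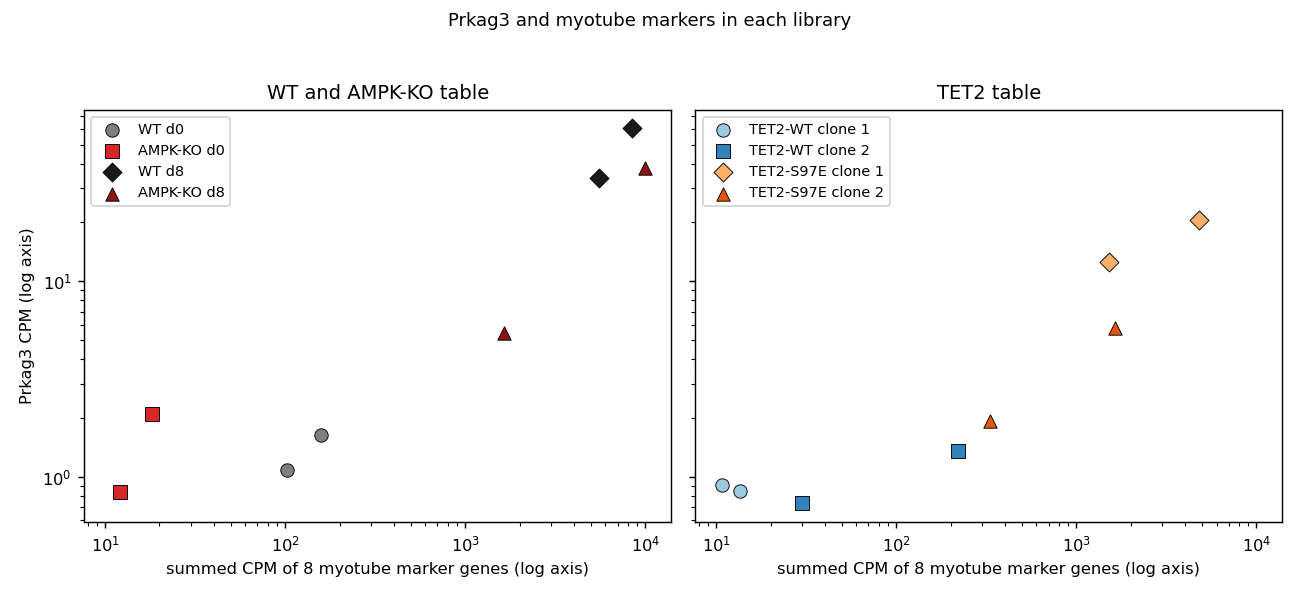
Prkag3 CPM (vertical, logarithmic) against the summed CPM of 8 myotube genes (horizontal, logarithmic) for the libraries of the first table (left) and the second (right), each point a library coloured by its group. AMPK-KO d8 replicate 1 (1647, 5.46 CPM) sits below the other 3 d8 libraries, and the 4 TET2-S97E libraries lie above the 4 TET2-WT libraries.

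Expressed per length, the composition of each subunit family can be read as the share of an isoform in the family's summed TPM. These shares rest on merged exon length and were not recomputed with another length. Merged exons and the longest transcript are 3066 and 2089 bases for Prkab1, 5096 and 5006 for Prkab2, and 6480 and 3331 for Prkag2. Prkaa2 made up 0.62% and 0.65% of alpha subunit RNA in WT myoblasts and 2.80% and 4.53% in WT at d8. In AMPK-KO the shares were 0.15% and 0.31% at d0 and 0.88% and 0.58% at d8. Prkaa1 therefore supplied at least 95.5% of alpha RNA in each of the 16 libraries, and summed alpha TPM averaged 122 in WT and 58.4 in AMPK-KO at d0, and 103 and 63.9 at d8.

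Prkab2 made up 39.3% and 23.7% of beta RNA in WT at d0 and 46.3% and 56.4% at d8, and 35.2% and 23.8% then 37.9% and 46.9% in AMPK-KO. Its share was higher at d8 than at d0 in each genotype by library values that did not overlap. Prkag3 made up 2.70% and 1.48% of gamma RNA in WT at d0 and 37.4% and 48.1% at d8. In AMPK-KO its share was 3.62% and 1.36% at d0 and 9.22% and 37.5% at d8. Prkag1 held the largest gamma share in each of the 16 libraries, at 56.8% and 48.3% in WT at d8, and 80.1% and 56.5% in AMPK-KO at d8.

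**Figure D4:**
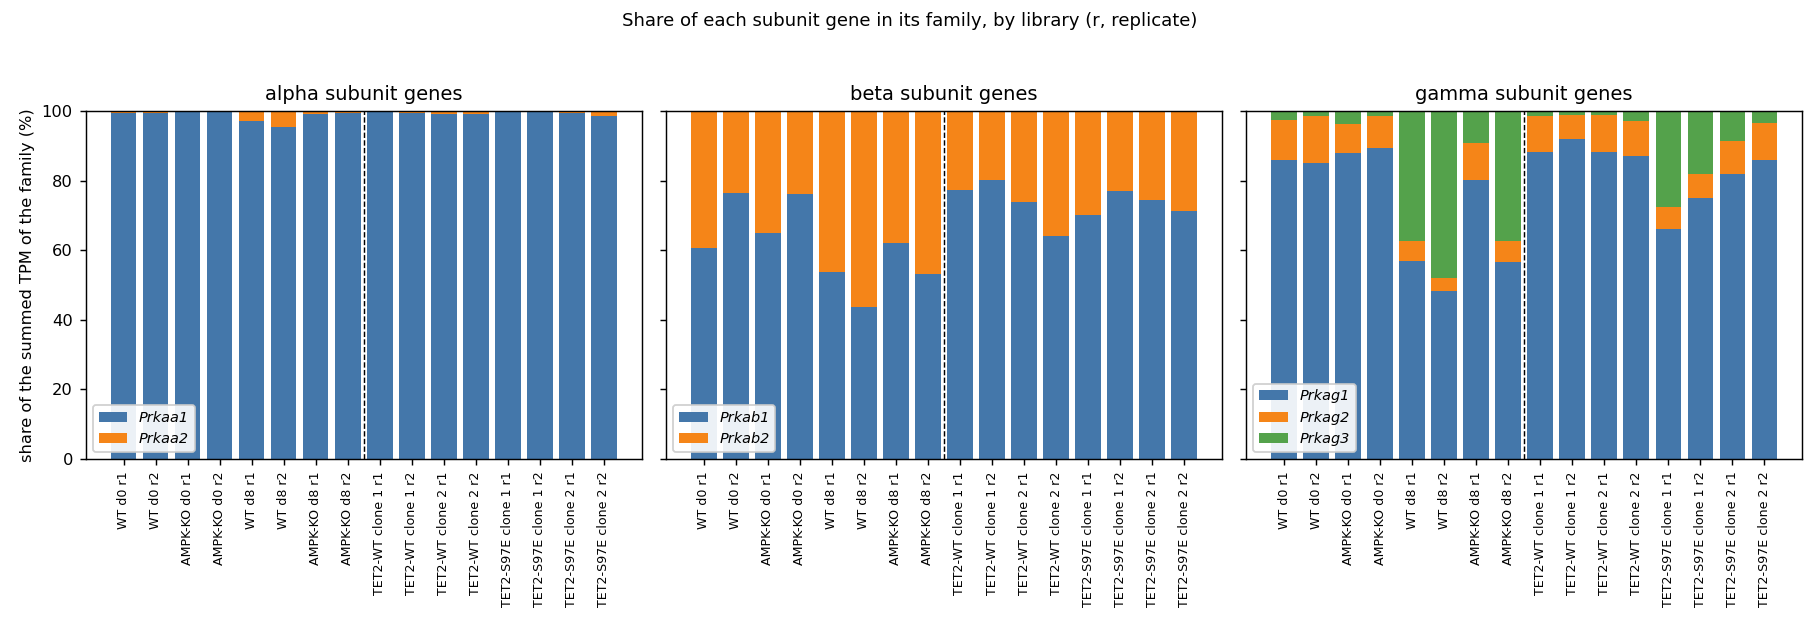
Share of each isoform in the summed TPM of its family (vertical axis, percent) in each of the 16 libraries, stacked to 100 for the alpha, beta and gamma families. Prkaa2 stayed at or below 4.53% of alpha RNA, whereas Prkag3 reached 48.1% of gamma RNA in WT at d8 and 27.5% in a TET2-S97E library.

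Among the upstream kinases, Camkk2 (ENSMUSG00000029471.13, chr5:122731170-122779409, minus strand) was lower in AMPK-KO than in WT in every library of each day. It was at 57.1 and 38.0 CPM in WT and at 29.5 and 21.3 CPM in AMPK-KO at d0. At d8 it was at 42.4 and 35.0 CPM in WT and at 26.8 and 14.7 CPM in AMPK-KO. All AMPK-KO values lay below all WT values across both days. The log2 difference was -0.91 ± 0.344 at d0 (edgeR adjusted p = 0.198), -0.90 ± 0.344 at d8 (edgeR adjusted p = 0.181) and -0.90 ± 0.243 for the mean of both days (edgeR adjusted p = 0.0502), which missed the threshold; DESeq2 called the mean difference (adjusted p = 0.00525). Leaving out 1 library moved the log2 difference to between -1.17 and -0.59 at d0 (without WT d0 replicate 2 and replicate 1) and to between -1.40 and -0.53 at d8 (without AMPK-KO d8 replicate 1 and replicate 2). With a replicate block edgeR called it at d0 (adjusted p = 0.0482), at d8 (adjusted p = 0.0337) and for the mean (adjusted p = 0.00754).

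Stk11 (ENSMUSG00000003068.16, chr10:80115803-80130682, plus strand) lay the other way. It was at 115 and 128 CPM in WT and at 150 and 141 CPM in AMPK-KO at d0, and at 126 and 132 CPM in WT and at 155 and 168 CPM in AMPK-KO at d8. The AMPK-KO libraries lay above all WT libraries, by a log2 difference of 0.29 ± 0.0990 for the mean of both days (edgeR adjusted p = 0.0930). Map3k7 (ENSMUSG00000028284.13, chr4:31964097-32023467, plus strand) was at 146 and 131 CPM in WT and 119 and 136 CPM in AMPK-KO at d0, which overlapped, and at 157 and 147 CPM against 126 and 136 CPM at d8, which did not. In edgeR's fit without a block, no upstream kinase was called between AMPK-KO and WT, between TET2 genotypes or with differentiation. Other fits did call Camkk2 between AMPK-KO and WT, among them DESeq2, the block and edgeR with no filter on low counts (adjusted p = 0.0132 at d0, 0.00940 at d8 and 3.23e-05 for the mean), and 1 called it between TET2 genotypes (without TET2-S97E clone 1, 0.78 on the log2 scale, edgeR adjusted p = 0.0361).

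The comparison of TET2-S97E with TET2-WT asks what a phospho-mimicking TET2 changed in cells without AMPK. Of the 10 genes edgeR called Prkag3 alone, beside 6.98% of 13433 genes tested. Prkag3 was at 0.904 and 0.843 CPM in TET2-WT clone 1 and at 0.732 and 1.35 CPM in clone 2, and it was at 20.5 and 12.5 CPM in TET2-S97E clone 1 and at 5.80 and 1.93 CPM in clone 2. All TET2-S97E libraries lay above all TET2-WT libraries, but clone 2 of TET2-S97E came close to them. Prkag3 rose 10.5-fold (3.40 ± 0.648 on the log2 scale, edgeR adjusted p = 0.0188).

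This fit treats the 2 libraries of a clone as separate, and the call rested on that. Counts summed per clone gave 3.28 (edgeR adjusted p = 0.324) and limma-voom with a random effect of clone gave 2.81 (adjusted p = 0.209); without TET2-S97E clone 1 the log2 difference was 1.99 (edgeR adjusted p = 0.0623). The call was also lost without either library of TET2-WT clone 1 (edgeR adjusted p of 0.0625 and 0.0606) or without replicate 1 of TET2-WT clone 2 (0.0651). An exact two-sided permutation test over the 8 libraries gave p = 0.0286, the smallest it can give, unadjusted for the 10 genes examined, and over the 4 clone means p = 0.333, likewise the smallest. Within TET2-S97E, Prkag3 was lower in clone 2 than in clone 1, with a log2 difference of -2.11 ± 0.507 (edgeR adjusted p = 0.0422), a call lost without any 1 of 5 libraries (edgeR adjusted p of 0.0546 to 0.189).

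The summed myotube markers were also higher in all 4 TET2-S97E libraries (329 to 4796 CPM) than in the TET2-WT libraries (10.8 to 219 CPM), and edgeR called 6 of 7 tested markers higher, beside 6.98% of all genes. With counts summed per clone edgeR called 0 of all genes. Of the other marker lists, edgeR called 2 of 5 myoblast markers higher (Pax7 and Myod1), 1 of 2 endothelial markers lower (Tek) and no fibroblast, adipocyte or macrophage marker tested. The mitochondrial share of counts was 2.29%, 2.12%, 2.03% and 2.09% in the TET2-S97E libraries and 1.14%, 1.00%, 1.38% and 2.14% in the TET2-WT libraries. In TET2-S97E clone 1 the sum was 4796 and 1511 CPM beside Prkag3 at 20.5 and 12.5 CPM, and in clone 2 it was 1648 and 329 CPM beside Prkag3 at 5.80 and 1.93 CPM. Replicate 1 of clone 2 thus had a higher sum than replicate 2 of clone 1 but a lower Prkag3 level. The TET2-WT library with the highest marker sum, clone 2 replicate 2, also held the highest Prkag3 of its genotype. The part of the markers and of the mitochondrial share in the Prkag3 difference was not tested. Prkag3 made up 27.5%, 18.2%, 8.63% and 3.52% of gamma RNA in the TET2-S97E libraries and between 1.13% and 2.78% in the TET2-WT libraries.

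Neither alpha subunit gene passed the test between TET2 genotypes. Prkaa1 was at 93.7, 75.4, 104 and 92.6 CPM in TET2-WT and at 80.4, 73.4, 76.4 and 73.7 CPM in TET2-S97E, with overlapping values. Prkaa2 was at 0.723, 0.738, 1.37 and 1.64 CPM in TET2-WT and at 0.454, 0.488, 0.908 and 1.73 CPM in TET2-S97E, again overlapping.

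Stk11 was lower in all 4 TET2-S97E libraries, at 143, 159, 140 and 155 CPM, than in all 4 TET2-WT libraries, at 166, 194, 170 and 187 CPM. The log2 difference was -0.26 ± 0.111 (edgeR adjusted p = 0.187), and the exact two-sided permutation test over libraries gave p = 0.0286, unadjusted for the 10 genes examined. Over the 4 clone means the exact test gave p = 0.333, the smallest it can give. Camkk2 was at 14.1, 14.1, 16.2 and 14.8 CPM in TET2-WT, and in TET2-S97E at 15.5 and 15.3 CPM in clone 1 and at 26.8 and 24.4 CPM in clone 2. Only clone 2 of TET2-S97E stood apart, and the genotypes overlapped (0.47 ± 0.208 on the log2 scale, edgeR adjusted p = 0.211). This difference was 0.30 without TET2-S97E clone 2 replicate 1 and 0.59 without TET2-S97E clone 1 replicate 2. Other fits gave between 0.05 and 0.78. Between the TET2-S97E clones, Camkk2 was higher in clone 2, 1.67-fold (0.74 ± 0.171 on the log2 scale, edgeR adjusted p = 0.0356), a call lost without any 1 of the 4 TET2-S97E libraries (edgeR adjusted p of 0.101 to 0.227) and without either library of TET2-WT clone 1 (0.0723 and 0.0731).

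Camkk2 and Prkag3 were the 2 members called between the TET2-S97E clones, beside 6.17% of 14459 genes tested. Markers of several cell types moved in the same comparison: edgeR called 3 of 5 myoblast markers lower in clone 2 (Myod1, Cdh15 and Des), 1 of 7 myotube markers lower (Myh3), 2 of 3 fibroblast markers higher (Dcn and Lum), 1 of 3 adipocyte markers higher (Fabp4) and 1 lower (Cebpa), 1 of 2 endothelial markers lower (Cdh5) and neither of the 2 macrophage markers tested. The summed fibroblast CPM was 326 and 257 in clone 1 and 1154 and 686 in clone 2, most of it from Dcn (265 and 195 CPM, then 1101 and 640 CPM). The part of these markers in the Camkk2 and Prkag3 differences was not tested. Prkaa2 was at 1.49 ± 0.518 on the log2 scale in the same comparison (edgeR adjusted p = 0.140). Its difference was 0.94 without TET2-S97E clone 2 replicate 2 and 1.83 without TET2-S97E clone 2 replicate 1. Between the TET2-WT clones edgeR called no member, beside 0.858% of genes, and DESeq2 called 1 member there. In edgeR 1 of the 10, Prkab2, had an unadjusted p below 0.05, at 0.82 ± 0.225 on the log2 scale (edgeR adjusted p = 0.123). The Prkab2 difference was 0.51 without TET2-WT clone 2 replicate 2 and 1.07 without TET2-WT clone 2 replicate 1.

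Lists of pathway genes were read beside the members: the partners of the upstream kinases (8 genes), regulators of AMPK (10), AMPK substrates (25, of which 24 were tested) and the AMPK-related kinases that LKB1 also activates (12, of which 10 were tested). At d0 and at d8 edgeR called none of them between AMPK-KO and WT. Over the mean of both days the call was 1 of 8 partners, 1 of 10 regulators, 1 of 24 substrates and 2 of 10 related kinases, beside 14.4% of all genes. Tab2, an adaptor of TAK1, rose by 0.51 on the log2 scale (edgeR adjusted p = 0.0447), and Ppm1e, a phosphatase that acts on AMPK, rose by 1.15 (edgeR adjusted p = 0.0319).

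Tbc1d1, a Rab GTPase-activating protein of glucose uptake, fell by 0.79 ± 0.170 on the log2 scale in AMPK-KO (edgeR adjusted p = 0.0248). It was at 107 and 151 CPM in WT and at 56.9 and 78.8 CPM in AMPK-KO at d0, and at 215 and 226 CPM against 124 and 155 CPM at d8. The groups did not overlap on either day. Sik1, a salt-inducible kinase, fell by 1.42 ± 0.243 (edgeR adjusted p = 0.0123), from 33.9 and 59.9 CPM to 10.98 and 18.4 CPM at d0 and from 139 and 136 CPM to 51.9 and 71.6 CPM at d8. Mark2, a microtubule-affinity-regulating kinase, fell by 0.41 ± 0.0950 (edgeR adjusted p = 0.0316). For the same mean of both days edgeR also called 4 of 8 myotube markers (Myog, Mymk, Myh3 and Actn2), 3 of 5 myoblast markers (Pax7, Myod1 and Cdh15) and 2 of 3 fibroblast markers (Dcn and Lum) lower in AMPK-KO, and no adipocyte, macrophage or endothelial marker tested. Taken by day, edgeR called 2 of 8 myotube markers lower at d0 and 0 of 8 at d8, beside 3.52% and 5.35% of all genes. The part of these markers in the differences of Camkk2, Tbc1d1, Sik1 and Mark2 was not tested.

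Sik1 was the related kinase that moved in most comparisons. With differentiation it rose by 1.55 on the log2 scale in WT (edgeR adjusted p = 0.0319) and by 2.07 in AMPK-KO (edgeR adjusted p = 0.0227). In WT, Nuak1, another LKB1-activated kinase, rose by 2.27 (edgeR adjusted p = 0.0169) and the mTORC1 inhibitor Tsc2 by 0.53 (edgeR adjusted p = 0.0487). In AMPK-KO, the transcription factor Foxo3 rose by 0.84 (edgeR adjusted p = 0.0274) and Tbc1d1 by 1.04 (edgeR adjusted p = 0.0423). With differentiation edgeR called 1 of 24 substrates and 2 of 10 related kinases in WT, beside 12.4% of all genes. In AMPK-KO it called 2 of 24 and 1 of 10, beside 9.76%. No kinase partner and no AMPK regulator was called with differentiation in either genotype. The part in these changes of the myotube and fibroblast markers called higher at d8 was not tested.

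Between TET2 genotypes, 6 of 24 AMPK substrates were called, 4 higher and 2 lower in TET2-S97E, beside 6.98% of all genes. These calls treat the libraries of a clone as separate: counts summed per clone left 0 of all genes called by edgeR, and limma-voom with a random effect of clone left 166. Acaca, the carboxylase that commits acetyl-CoA to fatty acid synthesis, rose by 0.97 (edgeR adjusted p = 0.0121), and Txnip, a regulator of glucose uptake, fell by 0.99 (edgeR adjusted p = 0.0110). Further substrates called, chosen after their values were seen, were Ppargc1a (3.68 on the log2 scale), Tbc1d1 (0.90) and Lipe (-0.97). The myotube and myoblast markers called higher in the same comparison, and the mitochondrial share, are given above. Their part in the differences of these substrates and of Sik1 was not tested.

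Sik1 rose by 2.10 on the log2 scale in TET2-S97E (edgeR adjusted p = 0.0335), but it was lower in TET2-S97E clone 2 than in clone 1 (-1.90, edgeR adjusted p = 0.00811), at 32.4 and 32.5 CPM against 156 and 86.8 CPM. Nuak1 was higher in TET2-S97E clone 2 than in clone 1 (1.40, edgeR adjusted p = 0.00315). Ppargc1a (-2.28, edgeR adjusted p = 0.0272), Mff (-0.65, edgeR adjusted p = 0.0423) and Ppm1e (-1.39, edgeR adjusted p = 0.0251) were lower there. None of these lists held a call between the TET2-WT clones.

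Genes that followed the edited members most closely across the 8 libraries of the first table were found by the Pearson correlation of log2 CPM, as a description over libraries that share group and depth. For Prkaa1 these were Lhx2 (0.997), Syk (0.994), Peg12 (0.991), Tmod2 (0.990) and Gap43 (0.989), all listed at 0 in the AMPK-KO libraries except Syk, which was at 0.0408 CPM in d8 replicate 1. Syk, a tyrosine kinase, was at 29.4 and 22.8 CPM in WT at d0 and at 7.60 and 5.95 CPM in WT at d8. For Prkaa2 they were Smim5 (0.992), Casp1 (0.989), Fbxl5 (0.984), Atg10 (0.983) and Borcs5 (0.982). Casp1, an inflammatory protease, was at 3.47 and 2.17 CPM in WT at d0 and 20.8 and 31.0 CPM at d8, and at 0 and 0.23 CPM then 0.86 and 0.44 CPM in AMPK-KO.

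The neighbourhood of the edits was also read. Of 12 genes within 300 kb of Prkaa1, 6 were tested (Ptger4, Gm10250, Snord72, Rpl37, Ttc33 and Card6), and of 7 genes within 300 kb of Prkaa2, 2 were tested (Fyb2 and Plpp3). EdgeR called none of these 8 between AMPK-KO and WT at d0, at d8 or for the mean of both days. Some members share exon sequence with a gene on the opposite strand, and since the strand setting of the counting is not given in the sources used here, such reads may be split. Stk11 shares 232 exon bases with Cbarp (321 to 1216 counts), Prkag1 shares 950 with B130046B21Rik (2 to 23 counts), and Prkag2 shares 795 with Prkag2os2 (1 to 25 counts) and 142 with Prkag2os1 (0 to 7 counts).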

How the data were processed

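Total RNA of C2C12 cells was made into sequencing libraries by the authors, and reads were trimmed with Trim Galore 0.4.5, aligned with STAR 2.5.3a to GRCm38 and counted per gene with featureCounts 1.5.3 (per the submitters' processing notes). The deposited values are raw counts, 1 column for each of 16 libraries in 2 tables of 8. Members and lists were chosen with earlier results of these data known. CPM and TPM (merged exon length, GENCODE M21) were computed per table. Counts were tested with edgeR 4.0.16 in R 4.3.3 (TMM, filterByExpr, quasi-likelihood; threshold 0.05 on Benjamini-Hochberg adjusted p over all genes tested): 1 mean per group in the first table, per genotype in the second, and per clone for clone differences; SEs were |log2 fold change| divided by the square root of F. DESeq2 1.42.0 and limma 3.58.1 were alternatives. On simulated counts for AMPK-KO against WT at d0, edgeR called 0 of 198 genes changed by 1 log2 unit (0 others called) and 126 of 196 changed by 2 (9 others); for TET2-S97E against TET2-WT it called 61 of 198 (1 other) and 161 of 197 (9 others). Named genes were the 10 members, up to 3 called genes per list and comparison with the lowest adjusted p, the 5 closest in pattern to each alpha gene, and tested neighbours and overlapping genes. The values of 1 called gene are not reported here.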

Additional observations from a re-analysis of the deposited data

Results flagged for a closer look

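Prkag2 was looked at again because its genotype difference pointed opposite ways on the 2 days: both AMPK-KO libraries lay below both WT libraries at d0 (8.53 and 10.1 against 12.1 and 17.6 CPM) and above both at d8 (11.1 and 10.6 against 9.19 and 7.92 CPM). The log2 difference between AMPK-KO and WT was larger at d8 than at d0 by 1.01 ± 0.372 (edgeR unadjusted p = 0.0291, adjusted p = 0.951 over all genes tested), so it failed the correction. No group of 4 libraries in the second table held a member value far enough from the others to stand out by Dixon's criterion.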

How the results depend on the processing

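Each log2 difference and each count of the 10 genes called was recomputed with other scaling factors, DESeq2, other filters on low counts, fewer libraries in the fit, a replicate block and each library left out. The causes of the changes below were not tested, except that the minimum of 10 counts in every library removes Prkaa2 from both tables.

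For AMPK-KO against WT at d0, the count of 1 became 2 under DESeq2, 3 with no filter on low counts and 0 with only the libraries of that day. Prkaa2 at d0 was called by DESeq2 (-2.45, adjusted p = 0.00667) and with no filter (-2.42), and Prkaa1 lost its call with only that day (-1.01, edgeR adjusted p = 0.0512). At d8 the count of 2 became 3 with no filter or with the replicate block, 0 with at least 10 counts in every library and 1 with only that day; Prkaa1 lost its d8 call with no filter (-0.61), with the minimum of 10 counts (-0.63) and with only that day (-0.63). With that minimum the count became 1 for the mean of both days and 1 for d8 against d0 in WT, where DESeq2 and no filter gave 3 by calling Prkab2, and with no filter it became 2 for d8 against d0 in AMPK-KO.

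For TET2-S97E against TET2-WT the count of 1 became 0 with counts summed per clone, with a random effect of clone, and without either TET2-WT clone. An exact permutation test over libraries, unadjusted, gave 2; over the 4 clone means it could give only 0, since its smallest p is 0.333. Prkag3 was then at 3.28 (summed), 2.81 (random effect), 3.27 without TET2-WT clone 1, 3.54 without TET2-WT clone 2 and 1.99 without TET2-S97E clone 1, none of them called. Without TET2-S97E clone 1, Camkk2 was called in its place. Between TET2-WT clones the count of 0 became 1 under DESeq2, with no filter and with only that genotype. Between TET2-S97E clones the count of 2 became 1 with no filter (Camkk2 at 0.72) and 0 with only that genotype (Prkag3 at -2.11, Camkk2 at 0.74).

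The labels do not say that same-numbered replicates belong together, and with 2 numbers they were not taken as pairs; the correlation of their deviations from the group means ranged from 0.119 to 0.324 between the 4 groups of WT and AMPK-KO libraries and from -0.0355 to 0.512 between the TET2 clones. With the replicate block the count became 2 at d0 and 0 for d8 against d0 in AMPK-KO, where Prkag3 was at 3.57 (edgeR adjusted p = 0.0630); it also called Camkk2 between AMPK-KO and WT (-0.89 at d0, -0.95 at d8 and -0.92 for the mean of both days).

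Leaving out 1 library at a time moved the count of genes called between 0 and 1 at d0, 0 and 2 at d8, 2 and 3 for the mean of both days, 0 and 2 for d8 against d0 in WT, 0 and 1 in AMPK-KO, 0 and 1 for TET2-S97E against TET2-WT, and 0 and 2 between TET2-S97E clones. Where a group was left with 1 library, that library was assumed to vary like the rest. The log2 differences then lay between -1.02 and -1.01 for Prkaa1 at d0, -0.61 and -0.57 for Prkaa1 at d8, -3.30 and -2.56 for Prkaa2 at d8, 1.84 and 2.51 for Prkaa2 in WT differentiation, 4.62 and 5.43 for Prkag3 in WT differentiation, 1.90 and 4.70 in AMPK-KO differentiation, 2.81 and 3.74 for Prkag3 between TET2 genotypes, -3.14 and -1.50 for Prkag3 and 0.63 and 0.81 for Camkk2 between TET2-S97E clones. The difference of the Prkaa2 knockout effect between days lay between -0.93 and 0.10, the latter, of the other sign, without AMPK-KO d0 replicate 2. For 59 further pairs of member and comparison, not followed singly through the alternatives here, 87 of 893 alternative fits had the other sign and 0 were called.

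The number of all genes called went up with no filter on low counts and with DESeq2: from 505 to 2026 and 1378 at d0, from 766 to 2503 and 1656 at d8, from 2061 to 3537 for the mean with no filter, from 1771 to 3293 and 2754 for WT differentiation, from 1398 to 3039 and 2544 for AMPK-KO differentiation, from 938 to 1825 between TET2 genotypes with DESeq2, from 124 to 1627 and 894 between TET2-WT clones, and from 892 to 1680 and 1383 between TET2-S97E clones. It was 335 at d0 with only that day, 985 and 407 between the TET2-WT and TET2-S97E clones with only that genotype, and 677 and 1540 between them with the replicate block. With the minimum of 10 counts it was 204 at d0, 277 at d8 and 1212 for the mean. Counts summed per clone left 0 genes, a random effect of clone 166, and leaving out TET2-WT clone 1 or clone 2 left 219 or 589. Without 1 library at a time it lay between 17 and 615 at d0, 104 and 935 at d8, 846 and 2274 for the mean, 0 and 2339 for WT differentiation, 0 and 1775 for AMPK-KO differentiation, 0 and 6 for their difference, 304 and 1045 between TET2 genotypes, 0 and 271 between TET2-WT clones and 468 and 1029 between TET2-S97E clones. The order of TPM levels kept 56 of 80 ranks with the longest transcript as length and all 80 under the other scalings.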
